A study of Mus musculus with 41 samples.

Results

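The genes described here encode sensors that detect foreign or misplaced nucleic acid and start interferon production, with the proteins that relay or restrain their signal: Ddx58, Ifih1, Dhx58, Tlr3, Mavs, Tbk1, Tmem173, Zbp1, Eif2ak2 and Adar. They are 10 of 55536 gene rows, a family chosen by name and found by symbol in the GENCODE M21 annotation. The family was proposed because interferon-response genes were known to be higher in these data 8 h after RHOX10 was switched on. The iSLAM-seq values therefore belong to the choice of genes. They are given as a description, and no test of them is read as a result. The comparison of genotypes in RNA-seq was tested.

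RHOX10 is an X-linked homeobox transcription factor of the germ line. For RNA-seq, C57BL/6 mice that carried an OCT4-eGFP reporter were either wild-type or Rhox10-null, and cells positive for eGFP were sorted from testes. Each of the 4 libraries per genotype pooled the testes of 3 animals, whose age the labels do not give. iSLAM-seq sequences RNA made after a factor is activated. It used germline stem (GS) cells, which are cultured spermatogonia, here from neonatal P0-P1 testes. In all 24 iSLAM-seq libraries the cells carried an shRNA lentivirus against endogenous Rhox10 and received 4-Hydroxytamoxifen, so the control cells shared both. They differed in the vector: a fusion of Rhox10 with ERT2 and mCherry (Rhox10 cells), or ERT2 and mCherry alone (Ctrl cells). ERT2 holds a fused protein out of the nucleus until the drug is added. Libraries were taken at 0, 0.5, 1, 2, 4 and 8 h, with 2 per vector and time. CUT&Tag maps a chromatin protein by cleaving DNA beside a bound antibody. It used Rhox10-knockdown cells with HA-tagged Rhox10, with 3 libraries for the HA antibody, 3 for IgG and 3 from cells with an empty HA vector. For iSLAM-seq and CUT&Tag the labels do not say whether libraries of a group came from separate cultures, so their spread may be technical. All p-values measure the spread between libraries, which in RNA-seq is that between pools of testes.

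RNA-seq libraries held 6602089 to 8278887 counts and iSLAM-seq libraries 9419615 to 12645845. The gene Gm42418 alone took 58.03% to 59.37% of each wild-type RNA-seq library and 50.98% to 52.74% of the others, which leaves less depth for the sensor genes. Rhox10 was at 34.1 to 46.7 CPM (counts scaled to a common library size) in the Rhox10 cells of iSLAM-seq and at 0.202 to 2.42 CPM in Ctrl cells. In RNA-seq the wild-type libraries held 3 to 10 Rhox10 counts each and the null-labelled ones 4 to 11. The counts do not verify the genotype, and every genotype direction below is that of the label. CPM values use library sizes with the TMM composition factors of edgeR.

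Cells recognise viral RNA, and their own RNA when it is long and double-stranded, through 2 kinds of receptor. RIG-I (Ddx58) and MDA5 (Ifih1) are helicases of the cytosol that signal through the mitochondrial adaptor MAVS, while TLR3 reads double-stranded RNA in endosomes. Both routes reach the kinase TBK1, which activates IRF3 and thereby interferon transcription, and interferon in turn raises many of the sensors through binding sites called ISREs. The RNA-editing enzyme ADAR limits this response by marking cellular double strands as self. In the testis the pathway is known for defence against viruses and for reacting to retroelement RNA.

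The sequences around the start sites are given first because several of these genes are textbook targets of interferon. Of the 10 genes, 7 matched the RefSeq promoter table (GRCm38.p6), which holds 250 bases before and 50 after each gene's start. The core of the interferon-stimulated response element (ISRE) was searched on both strands as GAAA, any 2 bases, GAAA. It lay in the windows of Ddx58, Ifih1 and Eif2ak2, 3 of 7 genes, against 3.99% of the 27025 genes in the table. In each case the match lay just after the start, at bases 3 to 12 of Ddx58 on the opposite strand, 33 to 42 of Ifih1 and 19 to 28 of Eif2ak2, inside the first exon and its untranslated region. In the 250 bases before the start, 0 of 7 genes had a match, against 3.46% of genes. The 30 bases around each match are shown 5′ to 3′ on the strand of the gene, all minus strand in the genome, with the ISRE core in capitals.
Ddx58, chr4:40239804-40239833: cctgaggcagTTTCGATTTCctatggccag
Ifih1, chr2:62646206-62646235: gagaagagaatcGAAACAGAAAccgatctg
Eif2ak2, chr17:78882535-78882564: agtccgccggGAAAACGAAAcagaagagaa
The core of the other interferon element, GAS (TTCNNNGAA), was found in Eif2ak2, 178 to 170 bases before its start, and in Adar, 23 to 31 bases after 1 of its starts. That was 2 of 7 genes against 9.55% of all. The homeodomain core TAATTA was in 0 of 7 and in 6.12% of all. These matches are letters in a window, and no binding was measured at them.

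At 8 h, 9 of the 10 genes had a higher mean in Rhox10 than in Ctrl cells. The 10 log2 differences between vectors had a median of 1.30 at 8 h, with -0.0009 over all 20642 genes tested. At 0 h their median had been 0.07 and their range -0.16 to 0.36. Taken as a change of the difference from 0 to 8 h, the median was 1.19 for the family and -0.02 for all genes, and 6 of 10 genes exceeded 1, as did 9.82% of all genes. The plot of every library shows an early course in Ifih1, a late one in Ddx58, Zbp1, Eif2ak2, Adar and Tlr3, and a weak or absent one in Dhx58, Tmem173 and Tbk1. Mavs differed at 8 h mainly through a lower level in Ctrl cells. Where libraries are described below as lying apart from others, the share of all genes that did so was not computed.

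**Figure D1:**
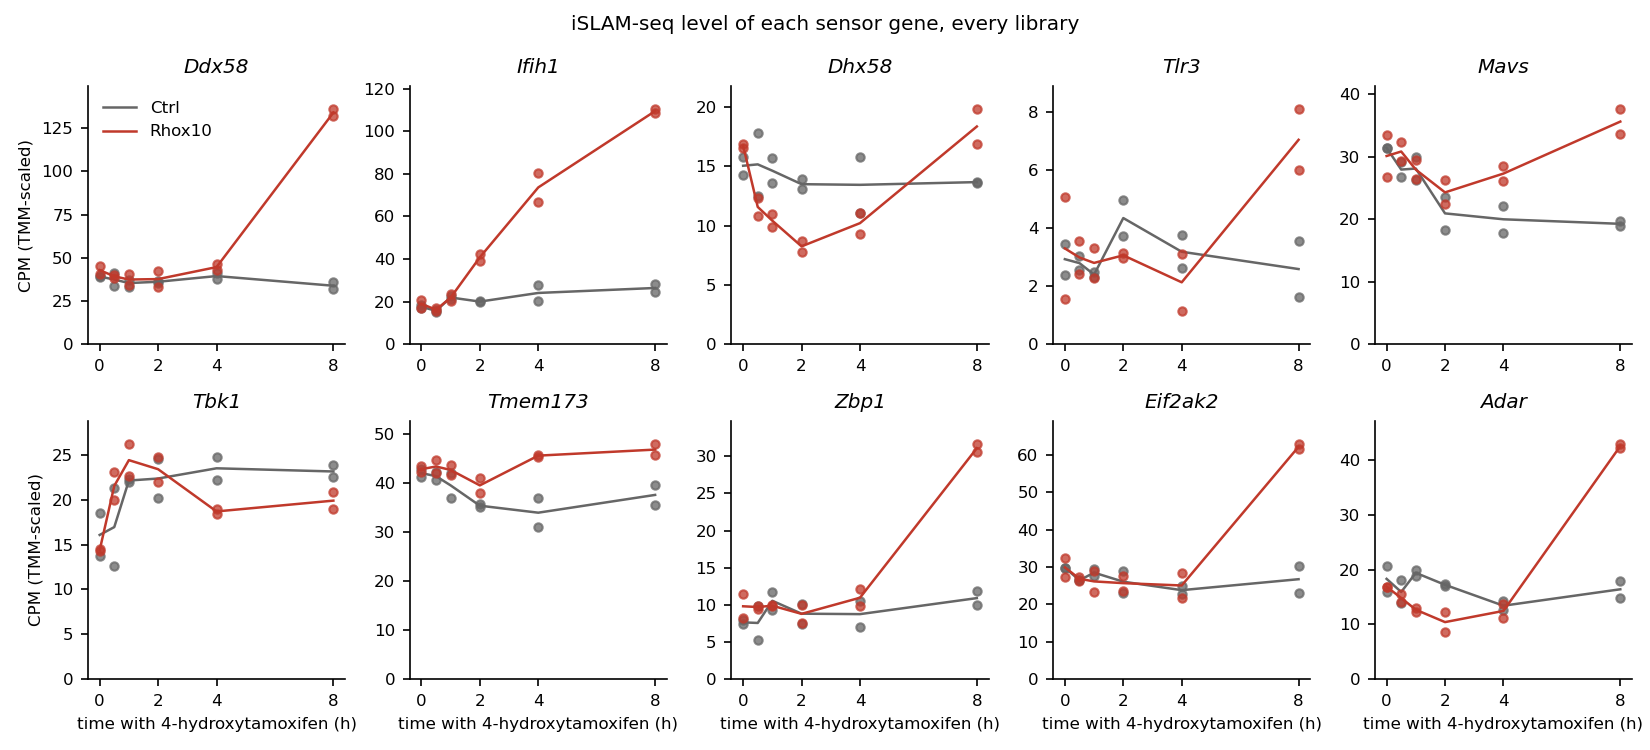
Level of each sensor gene in iSLAM-seq, in CPM on a linear axis from 0, against hours with 4-hydroxytamoxifen. Points are single libraries and lines join the means of 2, grey for Ctrl and red for Rhox10. Ifih1 separated from 2 h, Ddx58, Zbp1, Eif2ak2 and Adar by far the most at 8 h, and Tbk1 was lower in Rhox10 cells at 8 h.

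Ifih1 (MDA5, chromosome 2, 62595798 to 62646255) was the first of the family to reach a log2 difference above 1 between Rhox10 and Ctrl cells. Its level in Rhox10 cells was 20.8 and 17.2 CPM at 0 h, 20.4 and 23.4 CPM at 1 h, 39.3 and 42.3 CPM at 2 h, 80.5 and 66.7 CPM at 4 h, and 110.2 and 108.7 CPM at 8 h. The Ctrl libraries stayed between 15.3 and 28.1 CPM over all 12, so every Rhox10 library from 2 h on lay above every Ctrl library. The log2 difference was -0.01 (SE 0.151) at 1 h, 1.03 (SE 0.149) at 2 h, 1.61 (SE 0.147) at 4 h and 2.05 (SE 0.147) at 8 h. Ctrl cells were also somewhat higher at 8 h than at 0 h, by 0.58 on the log2 scale (SE 0.153). MDA5 binds long double-stranded RNA, and its gene was the only one of the family above a difference of 1 before 8 h.

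Ddx58 (RIG-I, chromosome 4, 40203773 to 40239828), which reads short RNA with a 5′ triphosphate, behaved differently from Ifih1 in time but reached the same difference. Rhox10 libraries were at 45.1 and 40.8 CPM at 0 h, 43.0 and 46.4 CPM at 4 h, and 135.9 and 132.3 CPM at 8 h. The other 22 libraries ranged from 31.9 to 46.4 CPM, so both 8 h libraries lay far above all others. The log2 difference was 0.18 (SE 0.135) at 4 h and 1.99 (SE 0.135) at 8 h, a 3.96-fold higher level at 8 h, close to the 4.14-fold of Ifih1. At 4 h Ifih1 stood at 1.61, and the 2 receptor genes thus differed in the time at which their RNA rose in Rhox10 cells.

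Dhx58 (LGP2, chromosome 11, 100694884 to 100704271), the third helicase of this kind, has no signalling domain of its own and tunes the other two. It first went the opposite way. In Rhox10 cells it was at 16.9 and 16.6 CPM at 0 h, 7.79 and 8.72 CPM at 2 h, and 19.8 and 16.9 CPM at 8 h. Ctrl libraries ranged from 11.1 to 17.8 CPM. The log2 difference was -0.71 (SE 0.205) at 2 h and 0.42 (SE 0.197) at 8 h. Its low point at 2 h, below all 12 Ctrl libraries, coincided in time with the first high values of Ifih1. An antisense gene, Dhx58os, overlaps it, so its value is uncertain where reads were not assigned by strand.

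Tlr3 (chromosome 8, 45395665 to 45411080), the endosomal receptor, was the least abundant, with 13 to 78 counts per library. Rhox10 libraries at 8 h were at 8.09 and 6.00 CPM, and the other 22 at 1.15 to 5.06 CPM. The log2 difference at 8 h was 1.44 with an SE of 0.483. Its change from 0 to 8 h, 1.29 (SE 0.689), moved between 0.69 without replicate 1 and 2.39 without replicate 2 of the Rhox10 libraries at 0 h, which held 1.55 and 5.06 CPM. Gm45542 lies antisense to it.

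**Figure D2:**
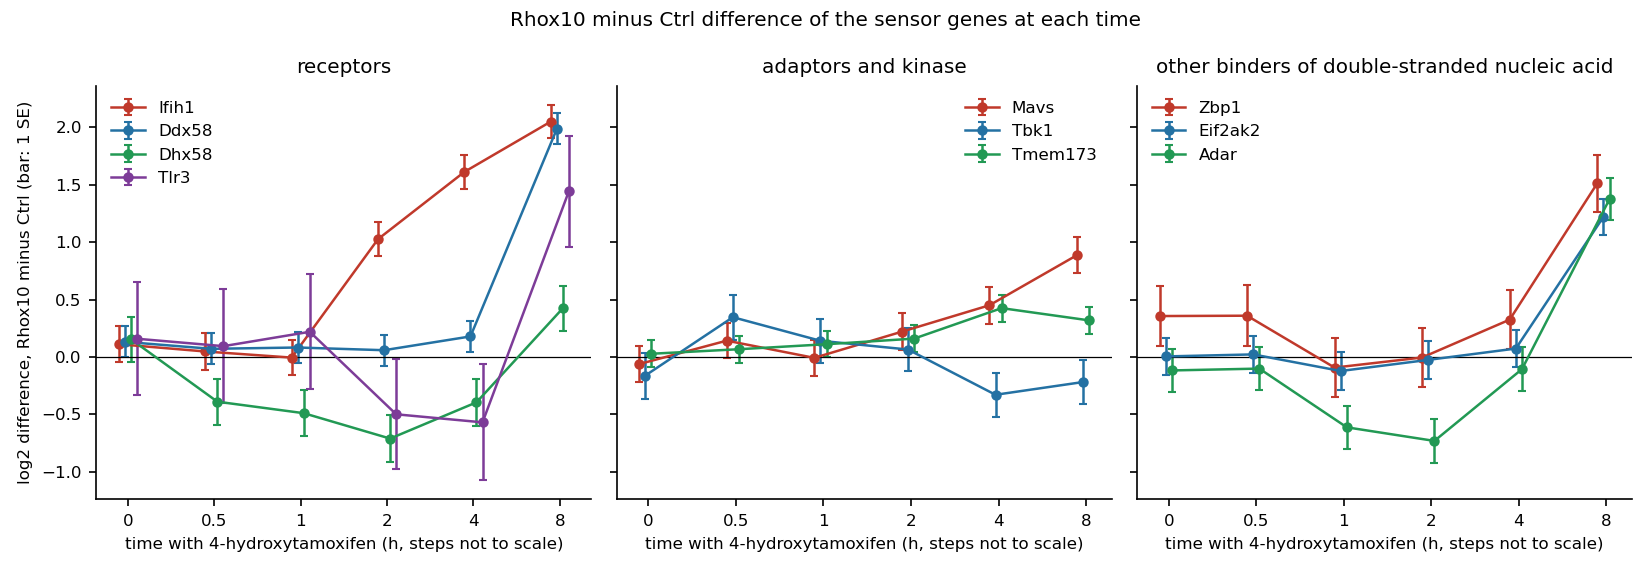
Log2 difference between Rhox10 and Ctrl cells at each of 6 times, with bars of 1 standard error, for 3 groups of sensor genes. The time steps are not to scale. Ifih1 reached 1.03 at 2 h, whereas Ddx58 stood at 0.18 at 4 h and 1.99 at 8 h. Adar and Dhx58 lay farthest below 0 at 1 and 2 h.

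Mavs, Tmem173 and Tbk1 relay the signal of the receptors. Mavs (chromosome 2, 131234063 to 131248025), the adaptor of RIG-I and MDA5, was at 26.7 and 33.5 CPM in Rhox10 cells at 0 h and at 37.5 and 33.7 CPM at 8 h. In Ctrl cells it was at 31.3 and 31.5 CPM at 0 h and at 18.9 and 19.6 CPM at 8 h. The log2 change within Rhox10 cells was 0.24 (SE 0.155) and within Ctrl cells -0.71 (SE 0.159). Most of the Mavs difference at 8 h, 0.89 (SE 0.159), thus came from a lower level in Ctrl cells. The RNA of the adaptor STING, Tmem173 (chromosome 18, 35733679 to 35740554), which relays signals from cytosolic DNA, was at 45.7 and 47.9 CPM in Rhox10 cells and 35.5 and 39.7 CPM in Ctrl cells at 8 h. Its difference was 0.43 (SE 0.117) at 4 h and 0.32 (SE 0.117) at 8 h, and the ranges of the vectors over all times overlapped. Tbk1 (chromosome 10, 121546455 to 121586787), the kinase on which these routes converge, was at 20.8 and 19.0 CPM in Rhox10 cells and 23.8 and 22.5 CPM in Ctrl cells at 8 h. It was the only gene of the family with a negative difference then, -0.22 (SE 0.194). In both vectors it was higher at 8 h than at 0 h, by 0.47 (SE 0.199) in Rhox10 and 0.53 (SE 0.195) in Ctrl cells. Its 2 Ctrl libraries at 0.5 h stood apart at 21.3 and 12.6 CPM, as did those of Zbp1 at 9.79 and 5.33 CPM.

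Zbp1, Eif2ak2 and Adar, whose proteins bind double-stranded or Z-form nucleic acid, had late differences of similar size. Zbp1 (chromosome 2, 173206612 to 173218923), a sensor of Z-form RNA and DNA that can trigger necroptosis, was at 31.6 and 30.6 CPM in Rhox10 cells at 8 h and at 5.33 to 12.1 CPM in the other 22 libraries. The log2 difference was 1.51 (SE 0.247). Eif2ak2 (PKR, chromosome 17, 78852564 to 78882573), which halts translation when it binds double-stranded RNA, was at 62.8 and 61.5 CPM there and at 21.8 to 32.4 CPM elsewhere, with a difference of 1.22 (SE 0.160). Both genes' 8 h Rhox10 libraries lay above all others without overlap, and the share of all genes with such a gap was not computed. The lincRNA Gm26637 and the rRNA gene n-R5s29 overlap Eif2ak2 on the opposite strand.

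Adar (chromosome 3, 89715022 to 89753446) was first lower and then higher. Rhox10 libraries were at 16.9 and 16.9 CPM at 0 h, 8.60 and 12.3 CPM at 2 h, and 42.3 and 43.0 CPM at 8 h. Ctrl libraries ranged from 12.6 to 20.7 CPM throughout. The log2 difference was -0.61 (SE 0.186) at 1 h, -0.73 (SE 0.191) at 2 h, -0.11 (SE 0.192) at 4 h and 1.37 (SE 0.181) at 8 h. Both Adar and Dhx58, the editor and the modulating helicase, were thus below Ctrl at 2 h, when Ifih1 was already above it. The receptor gene Tlr3 was below Ctrl at 2 h too, with a difference of -0.50 (SE 0.478). At 2 h, 5 of the 10 sensor genes had a difference above 0, as did 48.5% of all genes. A link between these early differences was not tested. Chrnb2 overlaps the 3′ end of Adar on the opposite strand, the part that the 3′ end kit of iSLAM-seq reads, so its reads and those of Adar could be mixed if strand was not used.

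**Figure D3:**
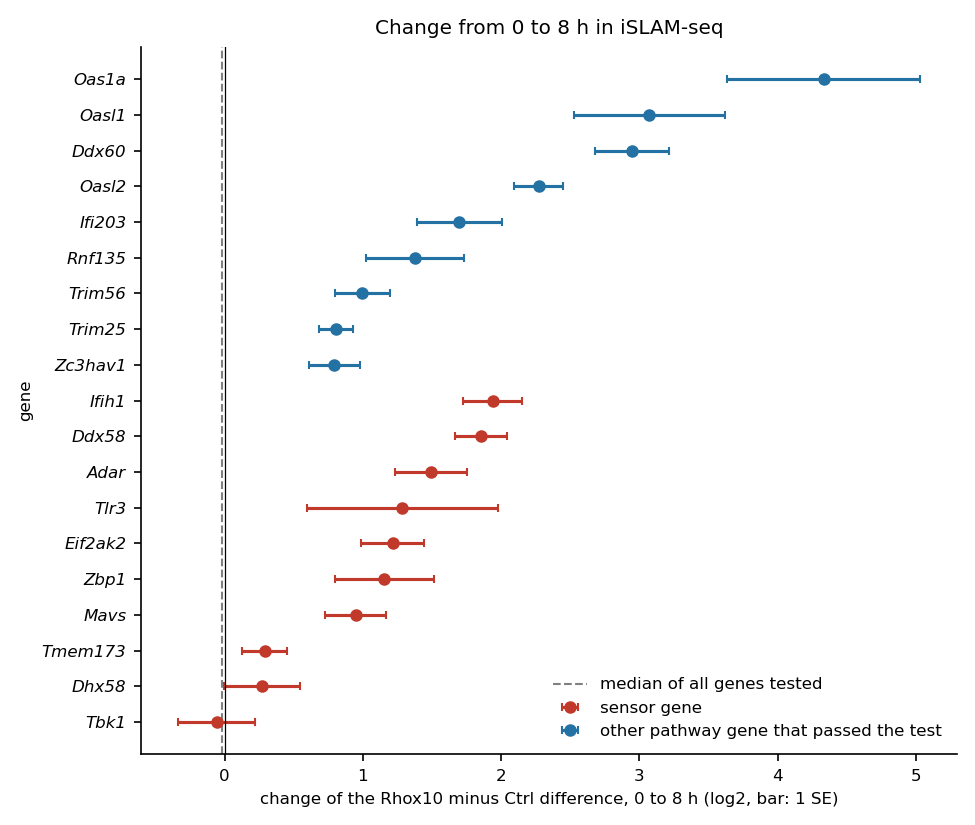
Change of the Rhox10 minus Ctrl difference from 0 to 8 h on the log2 scale, with bars of 1 standard error, for the 10 sensor genes (red) and the 9 other pathway genes that passed the test (blue). The dashed line is the median of all genes tested, -0.02. Sensor genes run from -0.06 for Tbk1 to 1.94 for Ifih1, and the blue genes reach 4.33 for Oas1a.

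Other genes of nucleic acid sensing, 67 in all, were taken from a list written with the interferon pattern known. In iSLAM-seq 58 were tested and 9 had a larger Rhox10 minus Ctrl difference at 8 h than at 0 h (edgeR, adjusted p under 0.05), where 0.872% of all genes tested did, while 0 had a smaller one. Nothing is read from this share, since the pattern was known when the list was written. The median of the 58 was 0.13. The 14 other sensors tested gave 5 of the 9 and had a median of 1.72. The largest changes were those of Oas1a (4.33, SE 0.697), Oasl1 (3.07, SE 0.546), Ddx60 (2.95, SE 0.265) and Oasl2 (2.27, SE 0.177). Oas1a makes the signal molecule that activates RNase L, and its difference went from -2.43 at 0 h to 1.90 at 8 h, with part of its change in a low level before induction. Oasl1 and Oasl2 are relatives of the same enzyme, and Oasl2 was at 58.3 ± 10.6 CPM in Ctrl and 218.7 ± 12.8 CPM in Rhox10 cells at 8 h (SD, n = 2). Ddx60 is a helicase that assists RIG-I. Of 15 regulators of the sensors 4 rose: Rnf135 (1.38) and Trim25 (0.80), ubiquitin ligases of RIG-I signalling, Trim56 (1.00), and Zc3hav1 (0.79), which binds CpG-rich RNA. The 16 adaptors, kinases and factors of the signal gave 0 calls, as did 8 enzymes that clear or mark self nucleic acid and 5 genes of the interferon group (Ifnk, Ifnar1, Ifnar2 and the receptor kinases Jak1 and Tyk2).

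The interferon genes examined were Ifnb1, Ifna4, Ifnk, Ifne, Ifnl2 and Ifnl3, and all but Ifnk were almost absent from the counts. Ifnb1, the first interferon made on sensing, had 5 counts over all 24 iSLAM-seq libraries, in 4 of them and at most 2 in any, with 1 count in the 2 Rhox10 libraries at 8 h. In RNA-seq it had 0 counts in all 8 libraries, which allows up to 3 counts per library, or 0.362 to 0.454 CPM of library totals. Ifna4, Ifnl2 and Ifnl3 had 0 counts in every library of both assays. Ifnk had 142 counts over 23 of the 24 iSLAM-seq libraries, and its change from 0 to 8 h was 0.05 with an SE of 1.55. Ifne had 2 counts, in 1 iSLAM-seq library, and 0 in RNA-seq. No difference in these interferon genes was detectable at this depth, and other interferon genes were not examined.

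For each sensor gene, the gene outside the family whose level followed it most closely over the 24 iSLAM-seq libraries was sought. Pearson correlation of log2 CPM was used, among 12051 genes outside the family of at least 5 CPM. These libraries share 12 groups, and the correlations describe them without a test. Ifih1 was nearest to Rsad2 (r = 0.965), the antiviral enzyme viperin. Ddx58 and Eif2ak2 were nearest to Igtp (r = 0.944 and r = 0.874), an interferon-inducible GTPase. Eif2ak2 followed Ddx58, a gene of the family, more closely still (r = 0.9). Zbp1 was nearest to Zc3hav1 (r = 0.936), Adar to Dtx3l (r = 0.884), and Tlr3 to Tap1 (r = 0.690), a peptide transporter of antigen presentation. The nearest genes of the rest encode chromatin proteins, Tmem173 with Arid4a (r = 0.875), Mavs with Kmt2e (r = 0.859), Tbk1 with Kdm5a (r = 0.823) and Dhx58 with Chd8 (r = 0.768).

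Markers of other cell types were summed in the cultured cells too. The 10 leukocyte markers summed to 36.0 to 37.4 CPM in Rhox10 and 35.0 to 43.7 CPM in Ctrl cells at 8 h, with 0 of 6 tested called for the change from 0 h. Itgam was at 0 in both Rhox10 libraries and Adgre1 in both Ctrl libraries. Germ cell markers summed to 2392 to 2463 CPM in Rhox10 and 2921 to 3017 CPM in Ctrl cells at 8 h. Of 6 stromal and 4 Sertoli cell markers tested, 1 of each was lower by the change from 0 h. Endothelial markers summed to 20.01 to 25.0 CPM in Rhox10 and 37.7 to 44.4 CPM in Ctrl cells at 8 h, with 0 of 5 called. Leydig cell markers summed to 10.7 to 13.1 and 11.4 to 11.9 CPM, with 0 of 2 tested called and a median change of 1.58. Erythroid markers summed to 0.580 to 1.24 and 0.509 to 0.572 CPM, with 0 of 2 tested called and a median change of 4.86. The part of these markers in the sensor values was not tested.

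The RNA-seq comparison asked whether the loss of Rhox10 in vivo altered the same genes. Of the 10 genes, 7 had enough counts to be tested, and 1, Ddx58, passed: it was higher in the libraries labelled null. In this comparison 37.5% of all 13538 genes passed, and 18.6% passed as higher, so 1 of 7 is no more than the share over all genes. Ddx58 was at 1.05, 1.07, 1.70 and 1.49 CPM in the wild-type libraries and at 5.02, 3.71, 2.16 and 4.71 CPM in those labelled null. The groups did not overlap, although the counts were low, 7 to 11 against 18 to 46. The log2 fold change was 1.55 (SE 0.275, edgeR adjusted p = 1.611e-05), a 2.93-fold higher level, and it passed without each library in turn (1.38 to 1.76). Over all alternatives its adjusted p ran from 8.066e-12 to 0.0003314. Ddx58 was thus higher both in Rhox10 cells at 8 h and in libraries labelled null.

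**Figure D4:**
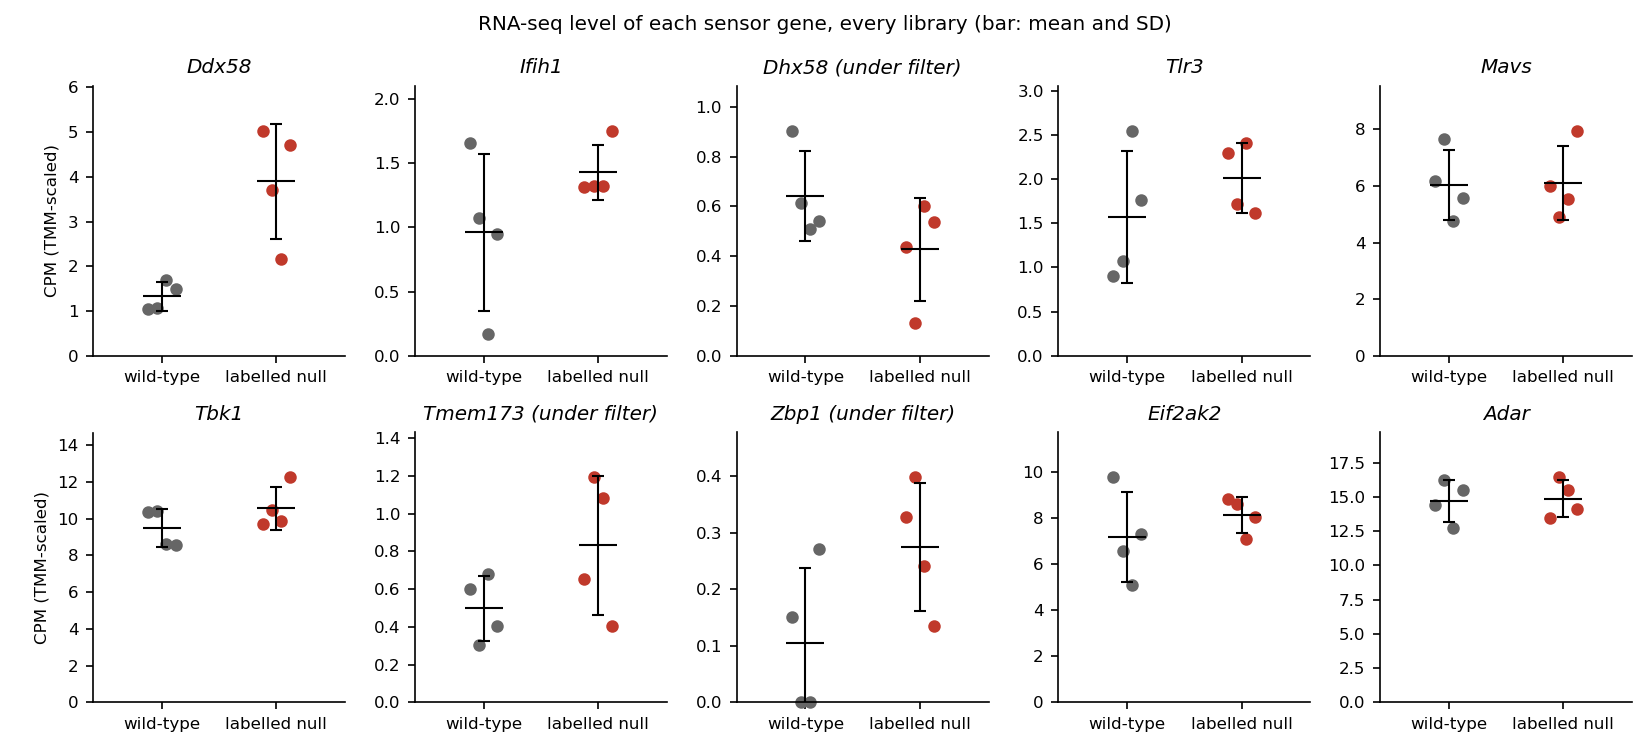
RNA-seq level of each sensor gene, in CPM on a linear axis from 0, in the 4 wild-type libraries (grey) and the 4 labelled null (red). Horizontal bars are means and vertical bars 1 SD. The groups are apart in Ddx58, at 1.05 to 1.70 against 2.16 to 5.02 CPM, and overlap in the other 9 genes. The share of all genes with groups apart was not computed, and 37.5% of all genes tested passed.

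Ifih1, the first of the family above a log2 difference of 1 in culture, was at 1.66, 1.07, 0.170 and 0.950 CPM in wild-type libraries. In those labelled null it was at 1.31, 1.32, 1.32 and 1.75 CPM. The ranges overlapped, and the log2 fold change of 0.52 (SE 0.362, edgeR adjusted p = 0.262) did not pass. Tlr3 was at 1.57 ± 0.747 and 2.01 ± 0.397 CPM (SD, n = 4, log2 fold change 0.39, SE 0.295, edgeR adjusted p = 0.315). Both rested on 1 to 21 counts per library, which leaves wide errors. The 4 more abundant genes were measured more closely. Mavs was at 6.04 ± 1.24 and 6.09 ± 1.31 CPM (SD, n = 4), with a log2 fold change of 0.004 (SE 0.161). Adar was at 14.7 ± 1.53 and 14.9 ± 1.34 CPM (SD, n = 4), with a log2 fold change of 0.0035 (SE 0.0981). Eif2ak2 was at 7.20 ± 1.96 and 8.15 ± 0.780 CPM (SD, n = 4; 0.17, SE 0.145) and Tbk1 at 9.50 ± 1.05 and 10.6 ± 1.16 CPM (SD, n = 4; 0.15, SE 0.118). Their edgeR adjusted p-values were 0.987, 0.986, 0.376 and 0.346. All 7 fold changes were above 0 with a median of 0.17, where the median of all genes was 0.003, but those of Mavs and Adar changed sign when DESeq2 was used.

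Dhx58, Zbp1 and Tmem173 fell under the count filter. Counts per wild-type and null-labelled library were 3 to 6 and 1 to 5 for Dhx58, 0 to 2 and 1 to 3 for Zbp1, and 2 to 4 and 3 to 9 for Tmem173. Fitted without the filter, their log2 fold changes were -0.56 (SE 0.566), 1.18 (SE 1.02) and 0.74 (SE 0.509), with edgeR adjusted p of 0.566, 0.507 and 0.393 over all genes, and none passed.

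Per kilobase of exon, so that genes can be compared, the family split into 2 tiers in the sorted wild-type cells. Tbk1 stood highest at 2.43 ± 0.267 CPM per kb (SD, n = 4), then Adar at 1.81 ± 0.189, Mavs at 1.81 ± 0.369 and Eif2ak2 at 1.41 ± 0.383. Adar, Mavs and Eif2ak2 did not differ beyond their spread. The receptors formed the lower tier with Tmem173 and Zbp1. Tlr3 was at 0.302 ± 0.144, Dhx58 at 0.196 ± 0.0548, Ddx58 at 0.188 ± 0.0451, Tmem173 at 0.182 ± 0.0625, and Ifih1 at 0.118 ± 0.0748, each within the spread of its neighbour, and Zbp1 at 0.0299 ± 0.0372. The kinase, the adaptor of the helicases, PKR and the editor were thus several times more abundant per length than the receptors.

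The genotypes also differed in cell markers, compared here under TMM scaling. The 10 germ cell markers summed to 304.3 to 309.2 CPM for wild-type and 137.5 to 146.6 CPM for null-labelled libraries, and 9 of 10 were called lower. The 10 leukocyte markers summed to 22.2 to 23.9 and 29.1 to 31.5 CPM, with 2 of 7 tested called higher and none at 0 in all libraries. Stromal markers summed to 421 to 443.5 CPM for wild-type and 672.8 to 709.5 CPM for null-labelled libraries, with 5 of 5 tested called higher. Endothelial markers (24.4 to 30.2 against 36.7 to 40.9 CPM) had 3 of 4 called higher and Leydig cell markers (32.0 to 33.8 against 44.7 to 53.3 CPM) 4 of 4. Erythroid markers lay at 1.36 to 4.07 against 78.3 to 86.8 CPM, with 6 of 6 called higher. Sertoli cell markers lay at 312 to 331.7 against 360.3 to 379.7 CPM. Of 6 tested, 1 was called higher and 1 lower, with a median log2 fold change of 0.04. In the wild-type libraries, which were sorted for the germ cell reporter, they summed to about the level of the germ cell markers. The part of all these markers in the higher Ddx58 was not tested. In bulk samples fewer cells of a type and less RNA per cell cannot be told apart.

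The values depended on the scale on which libraries are compared. With library totals in place of composition factors, the median of all genes shifted to 0.35 and 6 of the 7 sensor genes were called higher, with 58.0% of all genes called. With scaling to 18 germline genes the median was 0.867 and all 7 were called higher, with 89.7% of all genes called, 99.4% of those higher. Ddx58 was called under each of the 3 scalings, with log2 fold changes of 1.55, 1.90 and 2.41. A scaling shifts every gene by about the same amount, so the distance of a gene from the all-gene median is nearly fixed by construction.

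**Figure D5:**
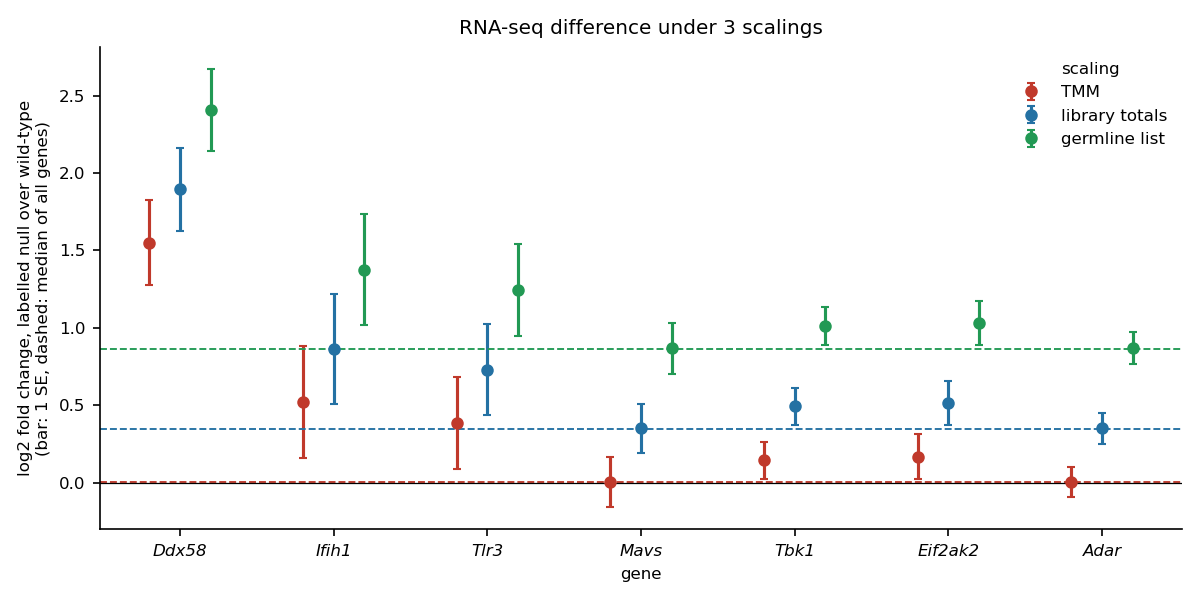
Log2 fold change of the 7 tested sensor genes between RNA-seq libraries labelled null and wild-type, with bars of 1 standard error, under 3 scalings of the libraries. Dashed lines mark the median of all genes under each scaling, 0.003, 0.35 and 0.867. The values of all 7 genes move with these lines, and Ddx58 is the highest under each scaling.

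Of the 67 other pathway genes 46 were tested in RNA-seq, and 34.8% were called in either direction, near the 37.5% of all genes. By direction, 14 were higher and 2 lower in libraries labelled null, where 18.6% of all genes were higher and 18.9% lower. This split by direction was not tested. The count of 16 was 10 without wild-type replicate 1 and 7 with DESeq2, and none was lower with DESeq2, library totals or germline scaling. The largest rises were in Nlrc5 (1.47, SE 0.306, edgeR adjusted p = 0.0001806), an activator of MHC class I genes, and Ikbke (0.92), a kinase related to TBK1. Unc93b1 (0.71), which carries Toll-like receptors to endosomes, and the interferon receptor subunit Ifnar2 (0.66) followed. Adarb1 (-0.46), another RNA editor, and the helicase Dhx9 (-0.12) were lower. Of the 4 pathway genes with the largest changes in culture, Oas1a and Oasl1 had too few counts to be tested in RNA-seq. Oasl2 was at 1.64 ± 0.597 and 1.66 ± 0.505 CPM (SD, n = 4) and Ddx60 at 2.19 ± 0.894 and 2.15 ± 0.427 CPM (SD, n = 4), with log2 fold changes of 0.0004 and -0.04.

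RHOX10 peaks in CUT&Tag were annotated by the authors' deposited table to 3 of the 10 genes, Mavs, Adar and Ddx58. Among genes tested in iSLAM-seq 21.7% had a peak, so 3 of 10 is not set apart from the background, and the 3 also lay within 1 kb of the start (19.1% of genes). The scores and annotations are the authors' own, while the distances of peak centres given next are to the nearest GENCODE start. The Mavs peak (chr2:131233686-131234201) had a score of 149.4, rank 2228 of 5147, and was centred 120 bases before the start. The Adar peak (chr3:89714909-89715733) had a score of 48.8, rank 4383, and was centred 11 bases from a GENCODE start. The authors annotated it as intron, 299 bases from the start they used. The Ddx58 peak (chr4:40240298-40240816) had a score of 16.6, rank 5142, nearly the lowest in the list, and lay outside the gene, 729 bases before its start. The 120 bases at the centre of the Mavs and Ddx58 peaks, the strongest and weakest of the 3, are shown on the strand of the gene (GRCm38.p6, Mavs plus and Ddx58 minus), in lower case throughout since none of the 3 motifs lay in these peaks.
Mavs, chr2:131233883-131234002: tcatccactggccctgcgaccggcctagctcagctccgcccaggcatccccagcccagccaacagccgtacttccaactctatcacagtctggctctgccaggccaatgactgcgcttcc
Ddx58, chr4:40240497-40240616: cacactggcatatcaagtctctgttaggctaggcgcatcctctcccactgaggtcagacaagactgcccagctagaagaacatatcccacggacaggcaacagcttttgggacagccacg
The Mavs stretch was 63.3% GC and the Ddx58 stretch 54.2%. Ifih1, the first of the family above a log2 difference of 1 in culture, was the farthest of them from any peak, at 538217 bases. Tlr3 was 462993 bases away, Tbk1 75985, Zbp1 57843, Tmem173 32878, Eif2ak2 23527 and Dhx58 8124, the last beside a peak annotated to Kat2a. The 8 h differences of the genes with a peak were 1.99 for Ddx58, 1.37 for Adar and 0.89 for Mavs. Those without a peak were at 2.05 for Ifih1, 1.51 for Zbp1, 1.44 for Tlr3 and 1.22 for Eif2ak2. Also without a peak were Dhx58 at 0.42, Tmem173 at 0.32 and Tbk1 at -0.22. A link between peaks and these differences was not tested.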

How the data were processed

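Both gene tables hold raw read counts per gene as the authors deposited them, per the file headers. The submitters' processing notes name STAR 2.5.2b, Subread, featureCounts, DESeq2 and GRCm38 for RNA-seq, limma 3.42.2 and mm10 for iSLAM-seq, and Bowtie2 2.2.5, SAMtools, HOMER and mm10 for CUT&Tag. The strand setting, and whether iSLAM-seq counts are all reads or reads with T-to-C conversions, are not given in the sources used here. The peak score is a score the authors deposited in 1 merged table without values per library. IgG and empty-vector signals were not used here.

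Counts were tested with edgeR 4.0.16 (quasi-likelihood test, TMM, filterByExpr with a minimum count of 10, Benjamini-Hochberg over all genes, threshold 0.05) in R 4.3.3 with limma 3.58.1. RNA-seq was fitted with genotype alone and iSLAM-seq with 12 group means over 24 libraries. Standard errors are the absolute log2 fold change over the square root of F. Log2 CPM for correlations used a pseudocount of 0.5 CPM. Of 55536 identifiers, 55450 had a GENCODE M21 symbol. Sequences were read with Python 3.11.15 and pysam 0.24.0 from RefSeq GRCm38.p6. Fits were tested on simulated data. Replicate numbers did not pair libraries (correlations of deviations from -0.0192 to 0.014 in RNA-seq and -0.0591 to 0.0568 in iSLAM-seq). Alternatives were DESeq2 1.42.0, other scalings and filters, a replicate block, each library left out, peak distances of 3 and 1 kb and a promoter window of 250 bases.

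The genes, the pathway list and the marker lists were chosen with earlier results of these data known. All 10 family genes were named. Of the pathway list, Ifnb1 and up to 4 called rises and 4 called falls per assay were named. For each family gene, the 1 gene outside the family of highest correlation was named too. Rnf135, Trim25, Trim56, Zc3hav1 and the other interferon genes were named after their values were seen. Tables had 0 further columns of samples.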

Additional observations from a re-analysis of the deposited data

Results flagged for a closer look

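Ifih1 in RNA-seq had 1 library apart from the rest of its group. Replicate 4 of the libraries labelled null was at 1.75 CPM and the other 3 at 1.31 to 1.32 CPM. Its gap to the nearest took 0.97 of the range, above Dixon's critical value for 4 libraries. In counts it held 13 against 12, 10 and 11, so the gap was small. Of 20 groups of 4 examined, about 1 is expected to pass by chance.

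The change over time differed between the vectors for 5 genes at 8 h (edgeR, adjusted p under 0.05). Of all genes tested, 0.872% were called higher in this contrast. It is the iSLAM-seq contrast that led to the choice of the family. Nothing is therefore read from the count, and these values are a description. From 0 to 8 h the change in Rhox10 cells exceeded that in Ctrl cells by 1.94 on the log2 scale for Ifih1, 1.86 for Ddx58, 1.49 for Adar, 1.22 for Eif2ak2 and 0.95 for Mavs. For Ifih1 it already did so from 0 to 4 h, by 1.50.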

How the results depend on the processing

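RNA-seq calls depended on the scaling. Library totals gave 6 called sensor genes in place of 1 and 33 called pathway genes in place of 16, and scaling to germline genes gave 7 and 46. All genes called were 5071 with TMM, 7858 (92.0% of them higher, against 49.7%) with library totals, 12149 (99.4% higher) with germline scaling, and 3434 with DESeq2, which gave 7 pathway genes. Ddx58 remained the only sensor gene called under DESeq2, its size factors, no filter, the replicate block and TMM without genes above 1% of a library. Fold changes of Adar reversed with DESeq2 (-0.00634), with its size factors in edgeR (-0.000172) and without single libraries (-0.0639 to 0.0542), and those of Mavs with DESeq2 (-0.00624) and without single libraries (-0.135 to 0.128). Leaving out each library gave 10 to 15 pathway genes, the lowest without wild-type replicate 1.

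In iSLAM-seq the median change from 0 to 8 h ran from 0.89 to 1.40 without single libraries, the lowest without replicate 1 of Rhox10 at 0 h. The 8 h difference ran from 1.04 to 1.35, the change within Rhox10 cells from 0.72 to 1.26 and within Ctrl cells from -0.207 to -0.0266, and pathway calls from 7 to 9. Where 1 library was left in a group, it was assumed to vary like the other groups. ISRE cores fell from 3 genes to 0 and GAS cores from 2 to 1 in the 250 bases before the start, since the window then leaves out the bases after it. The replicate block left 1 sensor gene and 16 pathway genes called in RNA-seq, and 9 pathway genes in iSLAM-seq. Low counts limit the RNA-seq values of Ddx58, Ifih1, Tlr3, Dhx58, Zbp1 and Tmem173.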
